A study of Mus musculus with 6 samples.

Results

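The Kruppel-like factors (Klf) other than Klf2 were followed in activated mouse CD4 T cells with and without Foxo1. Their members were taken by symbol from a fixed list of 9 genes: Klf3, Klf4, Klf6, Klf7, Klf9, Klf10, Klf11, Klf12 and Klf13. Of these, 8 had a row in the normalized table of 13564 genes, and Klf12 had a row only in the count files of 55487 genes. The data were bulk RNA-seq of 6 cultures, 3 Foxo1TKO (1 to 3) and 3 Foxo1Ctrl (1 to 3), made to study how Foxo1 deficiency affects naive CD4 T-cell activation in vitro. Foxo1TKO mice were CD4cre Foxo1fl/fl, with Cre under control of the Cd4 promoter. Per the paper, Foxo1 is recombined in double-positive thymocytes, which carry both CD4 and CD8, so CD8 T cells of these mice lose Foxo1 as well. Foxo1Ctrl mice were Foxo1fl/fl without Cre. Per the methods, all were young adult C57BL/6 mice (C57BL/6J in the labels) that also carried Foxp3-GFP and were CD45.1 or CD45.2. Naive CD4 T cells (CD4N) from lymph nodes of either genotype were cultured for 4 days with anti-CD3 (clone 145-2C11) at 0.1 µg per ml and 250000 splenocytes of C57BL/6 CD3eKO mice, which lack T cells of their own and served as antigen-presenting cells. The labels give 50000 CD4N cells per culture and the methods a larger number. Neither says whether splenocytes were removed before RNA was extracted, nor whether the 3 samples of a genotype came from separate mice, so p-values measure the spread between these samples, which may be technical.

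Klf proteins bind CACCC and related GC-rich DNA through zinc fingers at their C-terminal end, and differ in the N-terminal part that recruits cofactors. Klf3, Klf8 and Klf12 bind the corepressor CtBP. Klf9, Klf10, Klf11 and Klf13 can recruit the Sin3 corepressor complex, whereas Klf2, Klf4, Klf6 and Klf7 carry activation domains and Klf4 can also repress. In T cells, Klf2 and Klf4 are known for holding naive cells in quiescence, Klf2 also for the homing receptors of naive cells, Klf10 as a target of TGF-β signalling and Klf13 for transcription of the chemokine gene Ccl5 late after activation.

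Libraries held 14783853 to 19675407 counts. Foxo1 itself was at 85.4, 46.5 and 115 normalized counts (counts divided by the TMM-scaled library size and multiplied by its mean) in Foxo1TKO 1 to 3, against 1529, 2285 and 1598 in Foxo1Ctrl 1 to 3 (log2 fold change −4.45, SE 0.36, edgeR adjusted p = 0.000195). The summed TPM (RSEM's transcript level, corrected for length and depth) of 8 T-cell markers ran from 8387 to 9099 in Foxo1TKO and from 9033 to 9207 in Foxo1Ctrl. Cd28 was lower in Foxo1TKO and the other 7 were not called. Markers of other cells were low by comparison. For B cells (6 genes) the sum was 7.01 to 8.83 TPM in Foxo1TKO and 21.9 to 27.8 in Foxo1Ctrl, and for plasma cells (2 genes) 17.7 to 44.2 and 75.0 to 103. CD8 T-cell markers (2 genes) summed to 4.27 to 6.48 and 6.87 to 8.29, dendritic cell markers (5 genes) to 2.42 to 3.74 and 2.01 to 3.71, and NK cell markers (3 genes) to 2.31 to 3.22 and 2.33 to 3.53. In such bulk samples fewer cells of a type and less RNA per cell cannot be told apart.

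The promoters of 4 members are shown. They are Klf3, Klf6 and Klf13, the members that fell in Foxo1TKO cultures, and Klf9, which was higher and whose window held GTAAACA. The sequences are from RefSeq (GRCm38.p6), read 5′ to 3′ on the strand of the gene and ending before the first annotated transcript. Capitals mark CACCC on either strand (GGGTG when read on the gene's strand), the box that Klf proteins bind, and GTAAACA, a core that forkhead factors such as Foxo1 bind. Klf3 is shown at chr5:64803271-64803387 (plus strand), Klf6 at chr13:5861239-5861481 (plus strand), Klf13 at chr7:63938916-63939165 (minus strand) and Klf9 at chr19:23140976-23141225 (plus strand).
Klf3: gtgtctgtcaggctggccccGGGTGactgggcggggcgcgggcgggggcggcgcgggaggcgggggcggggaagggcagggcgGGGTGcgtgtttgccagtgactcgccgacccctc
Klf6: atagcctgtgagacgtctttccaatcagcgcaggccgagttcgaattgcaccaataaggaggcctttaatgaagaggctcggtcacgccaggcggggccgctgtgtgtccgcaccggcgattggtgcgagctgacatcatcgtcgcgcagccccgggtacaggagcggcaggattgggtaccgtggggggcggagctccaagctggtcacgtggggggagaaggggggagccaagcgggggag
Klf13: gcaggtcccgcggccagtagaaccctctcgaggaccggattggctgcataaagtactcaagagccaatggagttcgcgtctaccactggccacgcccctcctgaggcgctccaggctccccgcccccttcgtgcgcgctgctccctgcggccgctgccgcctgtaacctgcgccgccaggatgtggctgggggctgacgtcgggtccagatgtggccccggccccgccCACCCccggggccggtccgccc
Klf9: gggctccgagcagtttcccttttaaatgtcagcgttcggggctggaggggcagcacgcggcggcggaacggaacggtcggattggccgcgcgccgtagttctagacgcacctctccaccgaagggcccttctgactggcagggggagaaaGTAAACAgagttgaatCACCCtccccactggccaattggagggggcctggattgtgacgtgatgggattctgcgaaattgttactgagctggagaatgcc
Windows of 250 bases before to 50 after the RefSeq start were searched on both strands for 8 of the 9 members, since the table holds none for Klf10. The forkhead core GTAAACA was found in the Klf9 window, 100 to 94 bases before the start, and in none of the other 7. Only this spelling was searched. The Klf4 window holds TGTTTAT, which is ATAAACA on the other strand and differs from it in the first base. GTAAACA was present in 3.65% of all 32851 promoters of this length. CACCC occurred in 57.5% of all promoters, with 5 matches in Klf3, 3 in Klf7 and 1 each in Klf9, Klf12 and Klf13, and none in Klf4, Klf6 and Klf11. Of the 5 in Klf3, 2 lie in the stretch shown. The GC box GGGCGG (35.7% of all promoters) had 6 matches in Klf3, 4 each in Klf4 and Klf11, 3 in Klf13 and 1 each in Klf6 and Klf7, and in Klf3 and Klf13 1 of these shared its end base with a CACCC match. CCAAT (37.4% of all promoters) had 4 matches in Klf6, 3 in Klf9, where 2 overlapped, and 2 each in Klf11 and Klf13. The GC content of the 8 windows ran from 45.7% in Klf12 to 77.7% in Klf11, against a median of 52.7% over all promoters. A match is a description of these letters and not of binding.

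Among the 8 members that could be tested, 3 were lower in Foxo1TKO cultures (Klf3, Klf6 and Klf13), 3 were higher (Klf4, Klf9 and Klf10) and 2 were not called (Klf7 and Klf11). A call required a Benjamini-Hochberg adjusted p under 0.05 in edgeR's quasi-likelihood test and a fold change over 1.5. Over all 13691 genes tested the same rule called 3144 (23%), with 1525 higher (11.1%) and 1619 lower (11.8%). The normalized counts of the genotypes did not overlap for any of the 8, against 5841 of all genes tested (42.7%). The median log2 fold change of the 8 was −0.77, and 0.0111 over all genes. The median of its absolute size was 1.502 for the members and 0.455 over all genes. The plot of normalized counts by library shows these 8 members and Klf12 with every replicate.

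**Figure D1:**
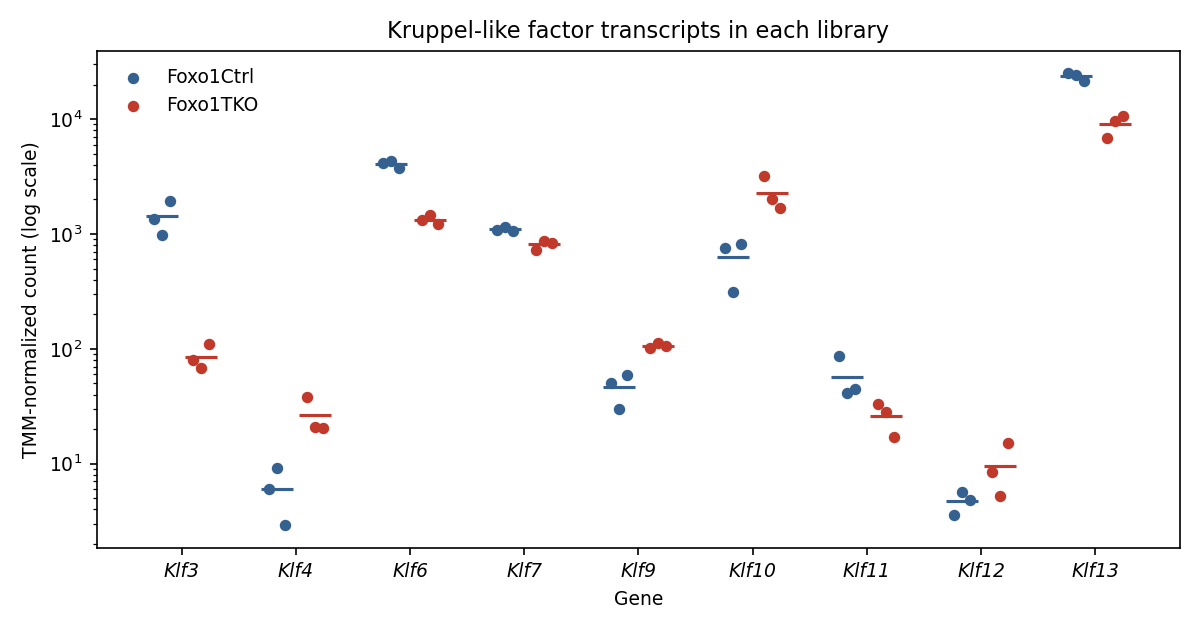
Normalized counts of the 9 Klf members in each library, on 1 log scale, for 3 Foxo1TKO and 3 Foxo1Ctrl cultures. Each point is 1 library and each bar the mean of its genotype. The points of the genotypes do not overlap for the 8 tested members. They overlap for Klf12, which was not tested.

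Klf3 encodes a repressor that works through CtBP. It was at 79.4, 67.6 and 109 normalized counts in Foxo1TKO 1 to 3 and at 1363, 980 and 1951 in Foxo1Ctrl 1 to 3. Every Foxo1TKO library was below every Foxo1Ctrl library, and within Foxo1Ctrl the third was the highest and the second the lowest. The means were 85.5 ± 21.6 and 1431 ± 489 (SD, n = 3 each), 16.6-fold lower in Foxo1TKO, a log2 fold change of −4.05 (SE 0.32, 95% interval −4.82 to −3.32, edgeR adjusted p = 0.000191). The interval lay below those of the other members that fell. The gene (ENSMUSG00000029178) spans chr5:64803388-64832901. Of the 54 expected counts of the 9 members, 51 were whole within 0.001, and the 3 that were not belonged to Klf3. The exons of Gm20033 on the opposite strand overlap those of Klf3. Gm20033 held 0, 3.1 and 0 counts in Foxo1TKO and 16, 17.2 and 22.9 in Foxo1Ctrl. Both genes had fractional counts in the same libraries. Klf3 and Gm20033 held 76.9 and 3.1 in Foxo1TKO 2, 856.84 and 17.16 in Foxo1Ctrl 2, and 2014.14 and 22.86 in Foxo1Ctrl 3. Their decimals complete a whole count each time, so reads were shared between Klf3 and Gm20033. The counts of Gm20033 are therefore not separate from those of Klf3. C230096K16Rik, which lies within Klf3 on the same strand without sharing exons, held 5, 0 and 1 counts in Foxo1TKO against 27, 39 and 51 in Foxo1Ctrl.

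The effective length of Klf3, the length of the transcripts that RSEM weighed for the gene, differed among libraries, from 1637 to 2193 bases in Foxo1TKO and from 1918 to 2770 bases in Foxo1Ctrl. With effective length as an offset the log2 fold change of Klf3 was −3.82 (edgeR adjusted p = 0.00095). The log2 fold change lay between −4.27 and −3.31 over 17 alternatives, each of which kept the call.

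Klf12, the other CtBP-binding member, was near the limit of detection. It had 10, 6 and 14 raw counts in Foxo1TKO 1 to 3 and 3, 5 and 5 in Foxo1Ctrl 1 to 3. After scaling for library size the genotypes overlapped, at 8.45, 5.26 and 15.02 normalized counts in Foxo1TKO and 3.58, 5.72 and 4.84 in Foxo1Ctrl. Of the 6 libraries, 2 reached 10 raw counts where 3 were required, so Klf12 was not among the genes tested. Without a filter on low counts (23345 genes) its log2 fold change was 0.88 with an SE of 0.78 (edgeR adjusted p = 0.463), and no difference was detectable at this depth. Klf12 (ENSMUSG00000072294) lies at chr14:99870632-100284679 on the minus strand.

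Klf4, Klf6 and Klf7 belong with Klf2 to the members that carry activation domains, and they did not share a direction. Klf6, an early gene in many activated cells, was at 1325, 1456 and 1212 normalized counts in Foxo1TKO and at 4134, 4340 and 3751 in Foxo1Ctrl. The replicates of each genotype lay close together and the genotypes were far apart. Its means were 1331 ± 122 and 4075 ± 299 (SD, n = 3 each), 3.06-fold lower in Foxo1TKO, with a log2 fold change of −1.61 (SE 0.15, 95% interval −1.95 to −1.28, edgeR adjusted p = 0.000302). Klf6 (ENSMUSG00000000078) lies at chr13:5861482-5870394, and its log2 fold change stayed between −1.68 and −1.46 over the alternatives.

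Klf7, expressed widely and known in neurons and lymphoid cells, was at 729, 877 and 830 normalized counts in Foxo1TKO and at 1095, 1157 and 1071 in Foxo1Ctrl. Each Foxo1TKO library was lower, by a small margin. The log2 fold change was −0.45 (SE 0.15, 95% interval −0.79 to −0.11, edgeR adjusted p = 0.0625), which did not pass the test, and the interval includes changes on both sides of the fold limit. On the TPM scale, which divides by transcript length, the genotypes overlapped, with 22.5 to 26.6 in Foxo1TKO and 24.8 to 36.0 in Foxo1Ctrl. Klf7 (ENSMUSG00000025959) lies at chr1:64029447-64122282 on the minus strand and shares exonic bases with Gm26649 and Gm13748 on the opposite strand. Gm13748 had 0 counts in the 6 libraries and Gm26649 was not analysed here.

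Klf4 was scarce in both genotypes and higher in Foxo1TKO. This regulator of quiescence in T cells, also abundant in monocytes, was at 38.0, 21.1 and 20.4 normalized counts in Foxo1TKO and at 5.96, 9.15 and 2.91 in Foxo1Ctrl. These rest on 45, 24 and 19 raw counts in Foxo1TKO and 5, 8 and 3 in Foxo1Ctrl. The lowest Foxo1TKO library was above the highest Foxo1Ctrl library, and Foxo1TKO 1 was the highest of the 6. The means were 26.5 ± 9.999 and 6.01 ± 3.12 (SD, n = 3 each), with a log2 fold change of 1.99 (SE 0.54, 95% interval 0.91 to 3.43, edgeR adjusted p = 0.0236). The call was lost without Foxo1TKO 1 (log2 fold change 1.63, edgeR adjusted p = 0.0761), without Foxo1TKO 2 (2.13, edgeR adjusted p = 0.0561), without Foxo1Ctrl 1 (2.00, edgeR adjusted p = 0.0837) and without Foxo1Ctrl 3 (1.69, edgeR adjusted p = 0.0781). It was also lost with limma on log2(TPM + 1), where the change was 0.51 and the pseudocount of 1 exceeds the level of the gene. Klf4 (ENSMUSG00000003032) lies at chr4:55527143-55532466 on the minus strand.

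Markers of myeloid cells were low and moved in part with Klf4. The summed TPM of 6 macrophage or monocyte markers was 4.56 to 6.03 in Foxo1TKO and 2.59 to 3.90 in Foxo1Ctrl. In it Csf1r was at 3.38, 0 and 0 normalized counts in Foxo1TKO and 2.38, 0 and 0 in Foxo1Ctrl, and Fcgr1 at 0.877 in Foxo1TKO 2 and 0 in the other 5 libraries. Adgre1 was at 3.38, 0 and 0 against 1.19, 0 and 0, and Lyz2 at 1.69, 0.877 and 17.2 against 0, 0 and 2.91. Cd68 lay higher in Foxo1TKO without overlap (60.0, 64.9 and 83.7 normalized counts against 44.1, 44.6 and 34.9), and Itgam lay lower without overlap (16.1, 14.04 and 12.9 against 58.4, 17.2 and 21.3), but neither of these 2, the markers of this list that were tested, was called (edgeR adjusted p = 0.099 and 0.160). The sum of 4 neutrophil markers was 5.39, 2.55 and 0.28 TPM in Foxo1TKO 1 to 3 and 0.31, 0 and 0 in Foxo1Ctrl 1 to 3. In it S100a8 was at 11.8, 8.77 and 0 normalized counts in Foxo1TKO and at 0 in the Foxo1Ctrl libraries. S100a9 and Mpo also had counts in Foxo1TKO only, whereas Ly6g was at 0 in Foxo1TKO and at 3.58, 0 and 0 in Foxo1Ctrl. The part of these cells in the level of Klf4 was not tested.

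Klf9, Klf10, Klf11 and Klf13, the members that can recruit Sin3, also split by direction. Klf10, a target of TGF-β signalling, rose from 750, 311 and 815 normalized counts in Foxo1Ctrl 1 to 3 to 3179, 2010 and 1692 in Foxo1TKO 1 to 3. The lowest Foxo1TKO library exceeded the highest Foxo1Ctrl library, with Foxo1TKO 1 the highest and Foxo1Ctrl 2 the lowest of the 6. The means were 2294 ± 783 in Foxo1TKO and 625 ± 274 in Foxo1Ctrl (SD, n = 3 each), 3.66-fold higher, with a log2 fold change of 1.87 (SE 0.39, 95% interval 0.98 to 2.77, edgeR adjusted p = 0.0111). Its log2 fold change lay between 1.56 and 2.11 over the alternatives. Its effective length hardly varied, from 2858 to 2876 bases in Foxo1TKO and from 2873 to 2882 in Foxo1Ctrl. Klf10 (ENSMUSG00000037465) lies at chr15:38291463-38300706 on the minus strand.

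Klf11, the closest relative of Klf10 and likewise tied to TGF-β signalling, was at 33.0, 28.1 and 17.2 normalized counts in Foxo1TKO and at 85.8, 41.2 and 44.6 in Foxo1Ctrl. Foxo1Ctrl 1 stood above the other 5 libraries. The log2 fold change of −1.09 (SE 0.42, 95% interval −2.10 to −0.15) did not pass the test (edgeR adjusted p = 0.0931), and none of 17 alternatives called it. Its interval did not meet that of Klf10. The gene (ENSMUSG00000020653) lies at chr12:24651274-24662789.

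Klf13, the most abundant member, was at 6922, 9576 and 10701 normalized counts in Foxo1TKO and at 25088, 24507 and 21682 in Foxo1Ctrl. The highest Foxo1TKO library held fewer counts than the lowest Foxo1Ctrl library. The means were 9066 ± 1940 and 23759 ± 1822 (SD, n = 3 each), 2.62-fold lower in Foxo1TKO, a log2 fold change of −1.39 (SE 0.19, 95% interval −1.84 to −0.94, edgeR adjusted p = 0.0020). Alternatives moved it between −1.53 and −1.24. Klf13 (ENSMUSG00000052040) lies at chr7:63886351-63938915 on the minus strand, and Gm27252 and E030018B13Rik lie within it on the opposite strand without sharing exons, at 0 to 8 counts and 0 counts.

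Klf9 is induced by glucocorticoid and thyroid hormone receptors in many cells, and its promoter window held GTAAACA. It was at 102, 112 and 105 normalized counts in Foxo1TKO and at 50.1, 29.7 and 59.1 in Foxo1Ctrl. The 3 Foxo1TKO libraries were nearly equal and lay above each Foxo1Ctrl library. The means were 107 ± 5.17 and 46.3 ± 15.04 (SD, n = 3 each), 2.27-fold higher in Foxo1TKO, a log2 fold change of 1.18 (SE 0.31, 95% interval 0.47 to 1.92, edgeR adjusted p = 0.0276). The effective length of Klf9 ran from 3470 to 4322 bases in Foxo1TKO and from 2091 to 4324 in Foxo1Ctrl, and with it as an offset the log2 fold change was 0.81 (edgeR adjusted p = 0.0957). Limma did not call Klf9 on the normalized signal (0.85, limma adjusted p = 0.0804), on log2(TPM + 1) (0.51, limma adjusted p = 0.0743) or on log2(TPM + 0.1) (0.84, limma adjusted p = 0.104). TPM also divides by length. In Foxo1Ctrl 2, where Klf9 had its shortest effective length, the normalized signal was 48.7 against 29.7 normalized counts. These settings may therefore not be separate checks. The edgeR call was also lost without Foxo1TKO 1 (adjusted p = 0.0507), Foxo1TKO 2 (adjusted p = 0.0897), Foxo1TKO 3 (adjusted p = 0.0593) or Foxo1Ctrl 1 (adjusted p = 0.0762). Klf9 (ENSMUSG00000033863) lies at chr19:23141226-23168134.

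**Figure D2:**
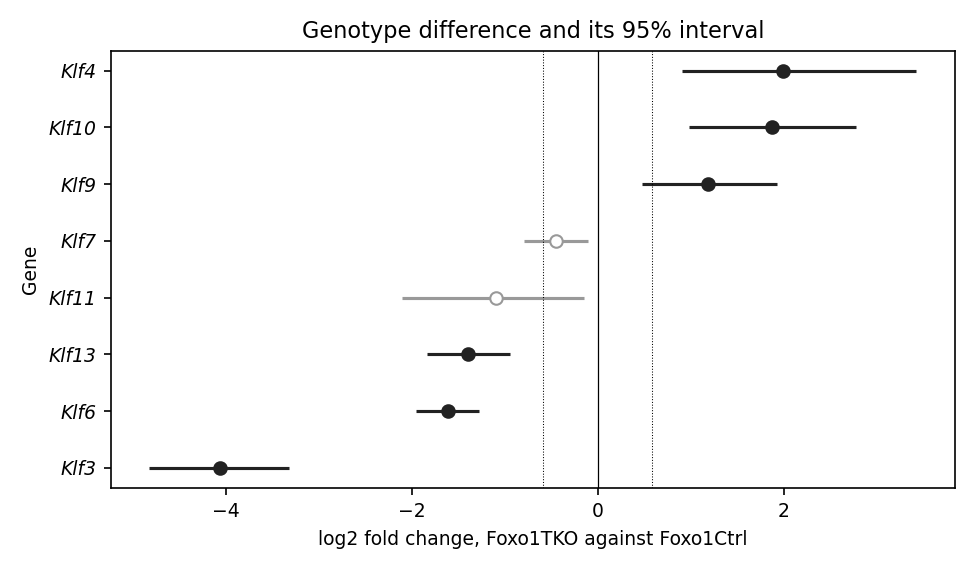
Log2 fold change of Foxo1TKO over Foxo1Ctrl for the 8 tested Klf members, with 95% intervals. Filled points passed the test, open points did not, and dotted lines mark a fold of 1.5 in either direction. The interval of Klf3 lies apart from those of Klf6 and Klf13. The intervals of Klf7 and Klf11 cross the lower dotted line, and that of Klf9, which was called, crosses the upper one.

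The calls of Klf3, Klf6, Klf10 and Klf13 held in 17 of 17 alternative fits, whereas Klf4 lost its call in 5 and Klf9 in 8. At a stricter limit of 0.01 on the adjusted p, Klf3, Klf6 and Klf13 were still called and Klf10, Klf4 and Klf9 were not. The plot of fold changes by setting shows this for each member.

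**Figure D3:**
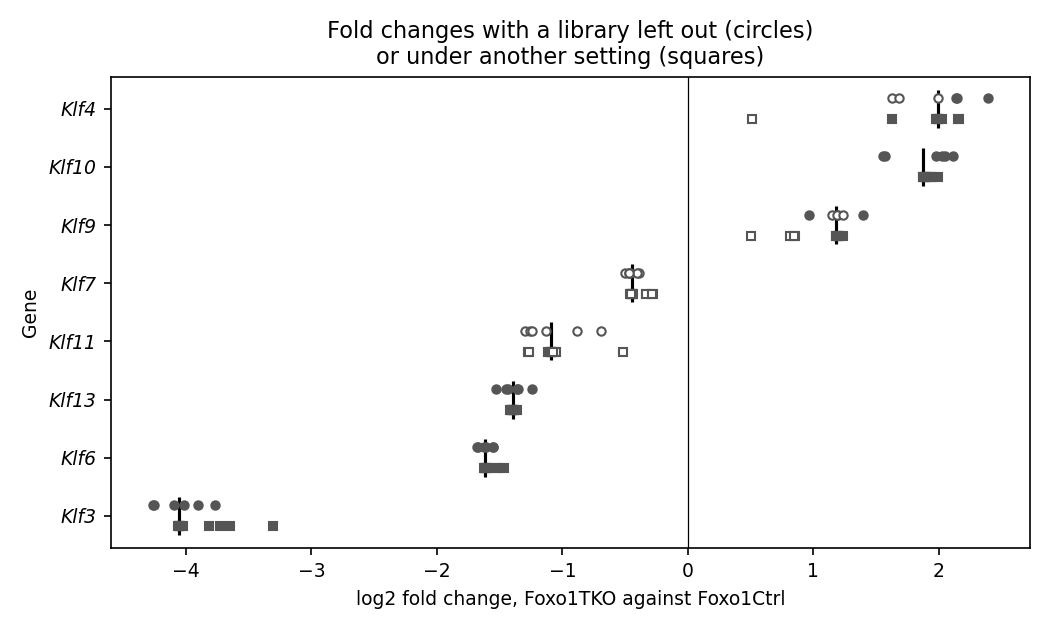
Log2 fold change of each tested Klf member, Foxo1TKO over Foxo1Ctrl, under the reported setting (black bar), with each library left out (circles) and under other settings (squares). Filled symbols passed the test. Klf3, Klf6, Klf10 and Klf13 are filled throughout, Klf7 and Klf11 are open throughout, and Klf4 and Klf9 hold both kinds.

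Levels of different members were compared per transcript length, in TPM. In Foxo1Ctrl, Klf13 was the highest (256 ± 26.4, SD, n = 3), followed by Klf6 (166 ± 14.1), Klf3 (43.1 ± 24.7), Klf7 (30.6 ± 5.60) and Klf10 (14.4 ± 7.18). Klf3 ranged from 20.1 to 69.1 TPM and overlapped Klf7 (24.8 to 36.0), whereas no other neighbours among these 5 overlapped. Below them Klf11 (1.14 ± 0.474) and Klf9 (0.997 ± 0.341) overlapped each other, and Klf12 (0.407 ± 0.0635) lay above Klf4 (0.13 ± 0.0557).

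In Foxo1TKO, Klf13 was again the highest in each library (99.2 ± 13.3 TPM, SD, n = 3). Klf6 (60.0 ± 10.8) and Klf10 (54.5 ± 23.5) followed, and their values overlapped, with Klf10 above Klf6 in Foxo1TKO 1. Klf7 stood at 24.8 ± 2.11 TPM, and Klf3, at 3.04 ± 0.94, lay below Klf7 in each of these libraries. Klf9 (1.81 ± 0.07) was above Klf4 (0.63 ± 0.295), Klf12 (0.61 ± 0.277) and Klf11 (0.473 ± 0.205), and the last 3 overlapped one another.

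The 9 members summed to 262, 247 and 226 TPM in Foxo1TKO 1 to 3 and to 563, 441 and 532 TPM in Foxo1Ctrl 1 to 3, so each Foxo1TKO culture held less Klf transcript of these kinds than each Foxo1Ctrl culture. Klf10 made up 16.03 to 30.83% of the sum in Foxo1TKO and 1.39 to 3.62% in Foxo1Ctrl. Klf3 made up 0.952 to 1.82% in Foxo1TKO and 4.55 to 12.98% in Foxo1Ctrl. The share of Klf6 was 21.2 to 26.0% against 30.7 to 34.8%, and that of Klf7 8.56 to 11.2% against 5.63 to 6.40%, without overlap. The share of Klf13 overlapped between the genotypes, at 32.0 to 48.3% in Foxo1TKO and 46.4 to 53.2% in Foxo1Ctrl. These shares are descriptions of a sum that Klf13 and Klf6 dominate and carry no test.

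**Figure D4:**
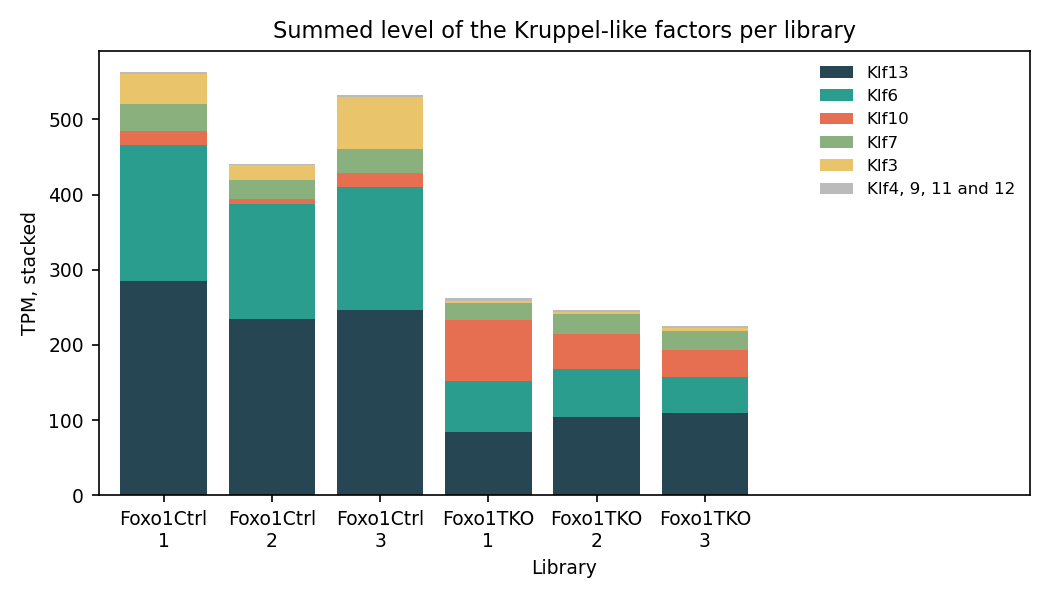
Stacked TPM of the 9 Klf members in each library, Foxo1Ctrl 1 to 3 and Foxo1TKO 1 to 3, with the axis starting at 0. Bar heights are 563, 441 and 532 TPM in Foxo1Ctrl and 262, 247 and 226 TPM in Foxo1TKO, and the Klf10 segment is larger in each Foxo1TKO bar.

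Of the rest of the Klf and Sp family (17 genes listed, 6 tested), 2 were lower in Foxo1TKO and 4 were not called. This was 33.3% called, against 23% of all genes tested, with a median log2 fold change of −0.54. Klf2 was at 5.92, 1.75 and 0 normalized counts in Foxo1TKO and at 650, 643 and 667 in Foxo1Ctrl (log2 fold change −7.46, edgeR adjusted p = 0.000117). Sp3, a widely expressed factor that binds the same GC boxes as Sp1, was at 939 ± 32.5 in Foxo1TKO and 1928 ± 73.3 in Foxo1Ctrl (SD, n = 3 each), with a log2 fold change of −1.04 (SE 0.13, edgeR adjusted p = 0.00142). Klf8, below the limit for testing, was at 0, 0.877 and 0 normalized counts in Foxo1TKO and at 9.54, 6.86 and 10.7 in Foxo1Ctrl. It is described as a gene that Klf3 represses in erythroid cells, and here the Foxo1TKO libraries held fewer counts of both genes.

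Of 16 cofactors that work with Klf proteins, 15 were tested, with 4 higher, 3 lower and 8 not called. This was 46.7% called, against 23% of all genes tested, with a median log2 fold change of 0.13. Those higher in Foxo1TKO were Zfpm1, a zinc-finger cofactor of GATA factors (2.04, edgeR adjusted p = 0.0120), the histone deacetylases Hdac2 (1.39, edgeR adjusted p = 0.0212) and Hdac1 (0.94, edgeR adjusted p = 0.009996), and the corepressor Ctbp1 (0.64, edgeR adjusted p = 0.0275). Those lower were the histone acetyltransferases Kat2b (−1.73, edgeR adjusted p = 0.000636), Crebbp (−0.82, edgeR adjusted p = 0.0276) and Ep300 (−0.78, edgeR adjusted p = 0.0488). Hdac1 rose from 4057 ± 660 to 7778 ± 1359 normalized counts and Kat2b fell from 818 ± 112 to 246 ± 24.7 (SD, n = 3 each). The Sin3 genes Sin3a (−0.10, SE 0.19) and Sin3b (0.03, SE 0.13) and Ctbp2 (−0.17, SE 0.29) were not called. Leaving out 1 library kept the calls of Zfpm1, Hdac1 and Kat2b in 6 of 6 fits. Ctbp1 lost its call in each of these 6 (edgeR adjusted p up to 0.0841), Hdac2 (up to 0.0816) and Ep300 (up to 0.175) were called only without Foxo1TKO 1 or Foxo1Ctrl 2, and Crebbp lost its call without Foxo1TKO 1, Foxo1TKO 2 or Foxo1Ctrl 1 (up to 0.0980).

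Of 14 genes described in some cell type as controlled by a member, 13 were tested, with 1 higher, 4 lower and 8 not called. This was 38.5% called, against 23% of all genes tested, with a median log2 fold change of 0.18. Lgals3, a galectin gene that Klf3 represses in other cells, was at 1086 ± 229 normalized counts in Foxo1TKO and 610 ± 126 in Foxo1Ctrl (SD, n = 3 each), a log2 fold change of 0.83 (edgeR adjusted p = 0.0317). C1qtnf12, another gene described under Klf3, was at 158 ± 77.5 and 128 ± 41.8 and was not called. Ccl5, the chemokine gene described under Klf13, was at 892 ± 114 and 1485 ± 341 (−0.73, edgeR adjusted p = 0.0324), and Bcl2l1, the other gene listed for Klf13, was not called (1.00, SE 0.81). Cdkn1b, a cell-cycle inhibitor gene listed under Klf4 and Klf6, fell from 1150 ± 250.8 to 304 ± 49.1 (−1.92, edgeR adjusted p = 0.000999), whereas Cdkn1a, listed with it, did not pass the test (0.62, SE 0.32). Smad7, the inhibitor of TGF-β signalling listed under Klf10, fell from 268 ± 72.2 to 115 ± 25.0 (−1.22, edgeR adjusted p = 0.0154), and the receptor gene Tgfbr2, listed under Klf6, from 1477 ± 118 to 893 ± 140 (−0.73, edgeR adjusted p = 0.0175). Cdkn1b kept its call with each library left out. The others did not: Lgals3 was called only without Foxo1TKO 3 (edgeR adjusted p up to 0.0860), Ccl5 only without Foxo1Ctrl 1 (up to 0.126), Smad7 was lost without Foxo1TKO 2, Foxo1TKO 3 or Foxo1Ctrl 1 (up to 0.0734) and Tgfbr2 without Foxo1TKO 2 or Foxo1Ctrl 1 (up to 0.0824).

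Of 20 genes of inputs known to induce Klf genes, all 20 were tested, with 1 higher, 5 lower and 14 not called. This was 30% called, against 23% of all genes tested, with a median log2 fold change of −0.48. Foxo1, the deleted gene, is one of the 5 lower, so this call was set by the design and the 30% includes it. The others lower were the thyroid hormone receptor gene Thra (−2.27, edgeR adjusted p = 0.00757), the hypoxia factor gene Hif1a (−2.14, edgeR adjusted p = 0.000963), Smad4 (−0.89, edgeR adjusted p = 0.0368) and Tgfbr2, given above. Hif1a fell from 16013 ± 2157 to 3623 ± 1154 normalized counts (SD, n = 3 each). The higher one was Stat5a, which transmits IL-2 signals, at 1156 ± 65.1 in Foxo1TKO and 574 ± 60.5 in Foxo1Ctrl (1.01, edgeR adjusted p = 0.00313). Nr3c1, the glucocorticoid receptor gene, had an edgeR adjusted p of 0.0325 with a log2 fold change of 0.58, just under the fold limit. Foxo3 (−0.57, SE 0.30) and Foxo4 (−0.81, SE 0.28) were not called. Stat5a, Hif1a and Thra kept their calls with each library left out, and Smad4 was called only without Foxo1TKO 3 (edgeR adjusted p up to 0.137).

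**Figure D5:**
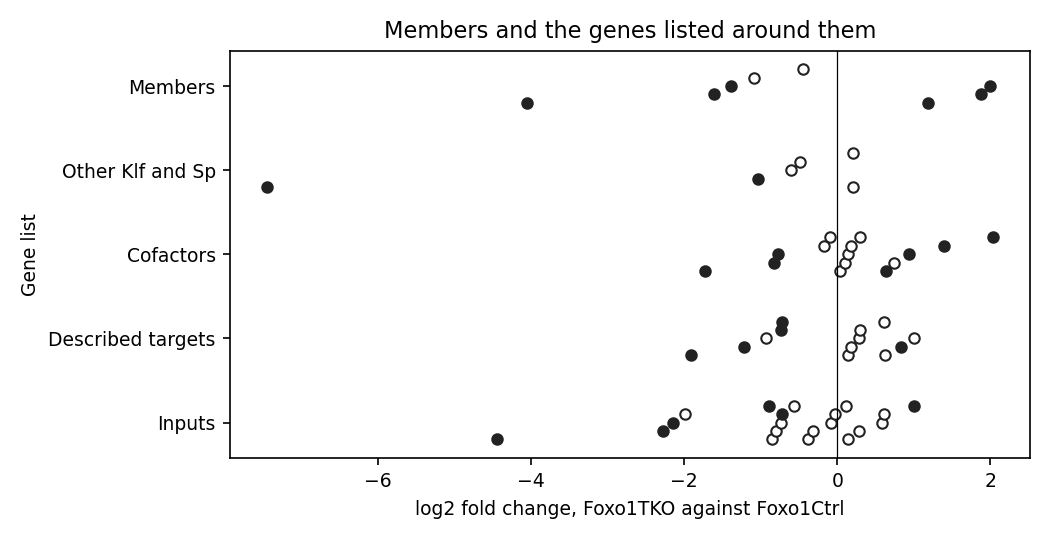
Log2 fold change, Foxo1TKO over Foxo1Ctrl, of each tested gene of the member, other Klf and Sp, cofactor, target and inducer lists. Each point is 1 gene, filled where it passed the test, which holds for 6 of 8 members, 2 of 6 other family genes, 7 of 15 cofactors, 5 of 13 targets and 6 of 20 inducers. The inducers that passed include Foxo1, the deleted gene, and Tgfbr2 counts among both targets and inducers. Over all genes tested, 23% passed.

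The genes whose profile over the 6 libraries was most like that of Klf3, among 9234 candidates averaging 100 or more normalized counts, were Gm15708, Gm4070 and Slamf6. Their root mean square differences from Klf3, on log2 CPM centred on each gene's mean, were 0.253, 0.345 and 0.346, and their own log2 fold changes −4.03, −3.82 and −3.72. For Klf4, the called member with the largest rise, they were Ugt1a7c (0.272), Scin (0.382) and Serpinb9b (0.395), with log2 fold changes of 2.41, 2.61 and 2.01. All these genes were picked for likeness in these same libraries, so their similar fold changes follow from the choice. The Klf4 profile also rests on few counts. Ugt1a7c shares exons with other Ugt1a genes, so its counts are uncertain. The B-cell and plasma-cell markers given above moved in the same direction as Klf3, Klf6 and Klf13, with Ms4a1 at 16.1 to 31.6 normalized counts in Foxo1TKO and 111 to 120 in Foxo1Ctrl, and their part in the levels of these members was not tested.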

How the data were processed

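RNA of 6 cultures (3 Foxo1TKO, 3 Foxo1Ctrl) was analysed, grouped by the genotype in the labels. The authors aligned reads with STAR 2.7.6a to GRCm38 and deposited RSEM 1.3.1 expected counts, TPM and effective lengths per gene and library. They also deposited a normalized signal per gene, for which the methods give DESeq2 median-of-ratios scaling. It was not the count times 1 factor per library. In Foxo1TKO 1, Klf10 had a signal of 3217 against 3179 normalized counts, and Klf9 81.5 against 102. The strandedness of counting is not given in the sources used here. Klf3 and Gm20033, on opposite strands, shared reads, so counting did not keep this pair apart by strand. Reads of other overlapping genes on opposite strands cannot be taken as told apart.

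Expected counts were rounded. The 13691 genes that reached 10 counts in 3 or more libraries were tested with edgeR 4.0.16 (TMM, quasi-likelihood, prior count 1; R 4.3.3), with Benjamini-Hochberg adjustment over all of them. SE and 95% intervals came from the same fit, but from its coefficient without the prior count. The printed log2 fold change includes the prior count, so intervals are not centred on it, most visibly for genes with few counts. With 3 libraries a genotype, a two-sided permutation test cannot go below 0.1, so none was run for single genes. Library totals set the counting precision. The comparison was checked on simulated counts.

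The members, Foxo1, Klf2, each called gene of the lists and the 3 genes closest in profile to the members with the largest fall and rise were named. Members and lists were chosen with earlier results of these data known. Sin3a, Sin3b, Ctbp2, Klf8, C1qtnf12, Bcl2l1, Cdkn1a, Nr3c1, Foxo3, Foxo4 and the markers were named outside this rule. Another marker list is not reported here.

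Alternatives were DESeq2 1.42.0, limma 3.58.1 (voom, normalized signal, TPM with pseudocounts of 1 and 0.1), other scalings, filters and thresholds, an effective-length offset, the replicate number as a block and each library left out. Symbols and positions came from GENCODE M21 (55141 of 55487 identifiers matched) and promoters from RefSeq. Figures were drawn with matplotlib 3.10.9.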

Additional observations from a re-analysis of the deposited data

How the results depend on the processing

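No member changed direction under any alternative run. The number of members lower in Foxo1TKO was 3 in all 20 alternatives. The number higher was 1 with limma on log2(TPM + 1), 0 at an adjusted p under 0.01, and 1 to 3 with a library left out (1 without Foxo1TKO 1, Foxo1TKO 2 or Foxo1Ctrl 1). It was 2 with the effective-length offset and with limma on the normalized signal or on log2(TPM + 0.1). At an adjusted p under 0.01, 1597 of all genes, 2 cofactors and 1 target were called, and with a fold over 2, 3 cofactors and 2 targets. Targets called were 2 with limma on log2(TPM + 1) and 2 on log2(TPM + 0.1). With a library left out, 1854 to 3321 of all genes (1854 without Foxo1TKO 2, 2031 without Foxo1Ctrl 1), 3 to 6 cofactors and 1 to 3 targets were called. The cause of these changes was not tested. Stricter thresholds call fewer genes by construction.

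Whether replicate numbers pair the samples was not settled. Correlations of deviations between same-numbered libraries were 0.406, 0.175 and −0.0886. Foxo1TKO 1 and Foxo1TKO 2 correlated best with the control of their own number, and Foxo1TKO 3 with Foxo1Ctrl 2 (0.272). Deviations from a mean of 3 libraries are tied to one another, so these correlations cannot decide it. For PD1, TIGIT and cell cycles the paper compared cultures of this kind in pairs by experiment. With a replicate block, 3318 genes were called, 2969 of them shared with the 3144 of the unblocked fit, and the members called were 3 higher and 3 lower.

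Depth limits Klf12 and Klf4, at 3 to 14 and 3 to 45 counts a library.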
